A study of Drosophila melanogaster with 6 samples.

Results

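Edg91 and 3 of its neighbours on chromosome arm 3R of Drosophila melanogaster, CG34281, CG14327 and CG43175, were examined in lola-O mutant and control embryos near the end of embryogenesis. These 4 genes, of 17559 gene identifiers in the count files and 10312 tested for a change, were chosen by their read counts in this comparison, because they are higher together in the mutant. For that reason their levels and fold changes are given as a description, without a test. All 4 passed the expression filter. CG14327 passed it through the mutants alone, and for CG34281 only 2 of 3 controls were above the filter's minimum.

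The data are RNA sequencing counts of polyA RNA from pools of 100 whole embryos aged 20 to 22 hours after egg laying. The mutant group held 3 samples of the genotype lola-O / Df(2R)ED2076, where lola-O is described as a knockout of isoform O and Df(2R)ED2076 is a deficiency on the second chromosome. The control group held 3 samples of the genotype Wild type / Df(2R)ED2076, so every embryo of both groups carried 1 copy of the deficiency. The comparison asks how transcript levels in late embryos differ when lola isoform O is mutated.

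Insects cover the body with a cuticle of chitin and protein that the epidermis secretes anew at each stage of life. Pulses of the steroid hormone ecdysone time this secretion, and the ecdysone-dependent genes (Edg) were found as genes that the imaginal discs switch on around such a pulse. Edg91 encodes a pupal cuticle protein of this group, and Edg78E and Edg84A encode others. The locus lola (longitudinals lacking) makes many spliced forms of a transcription factor with a shared BTB domain and varying zinc fingers, known from work on axon guidance. CG34281, CG14327 and CG43175 carry annotation symbols only, and no role is given for them here.

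Libraries held 16217213 to 22759638 counts. Levels of lola were not analysed here: the name tables used here paired none of the counted identifiers with lola, although an older identifier of lola may be among those they left unmatched, so the labels of the mutant group were not checked against it. The embryo label was set against marker genes. Markers of neurons (elav, nSyb, brp), larval muscle (Mhc, Act57B, Tm2), epidermis and trachea (kkv, knk, Gasp) and haemocytes (Hml, NimC1, srp) were counted in every library. The adult yolk protein genes Yp1, Yp2 and Yp3 held 0 to 11 counts per library, and the seminal gene SP held 0 counts in all 6, where a count of 0 allows up to 3 counts, or 0.132 to 0.185 CPM (counts per 1000000 counts of a library).

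The 4 genes lie within 34407 bases of 3R, from 17610856 to 17645262 in BDGP6.54. Edg91 (FBgn0004554, 17610856 to 17611511) is on the minus strand. It starts 1376 bases from the start of CG34281 (FBgn0085310, 17612887 to 17613404), which points away from it on the plus strand, so the pair is divergent. CG14327 (FBgn0038526, 17613709 to 17614933) follows CG34281 in the same direction after a gap of 304 bases. These first 3 genes fill only 4078 bases. CG43175 (FBgn0262794, 17630717 to 17645262, plus strand) stands apart, with a gap of 15783 bases to CG14327.

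All 4 have short transcripts with few exons. Edg91 has transcripts of 593 and 546 exonic bases that encode 159 and 151 residues, CG34281 has a single transcript of 448 exonic bases that encodes 106 residues, and CG14327 has transcripts of 756 and 883 exonic bases that share a coding length of 153 residues. CG43175 has a transcript of 441 exonic bases that encodes 116 residues and starts at 17644687. Its other transcript, of 593 exonic bases and 90 residues, starts at 17630717 and reaches the shared exons across a long intron. The counts are per gene and do not separate these transcripts. No exon of the 4 genes overlaps an exon of another annotated gene on either strand, although 2 tRNA genes, lncRNA:CR45222 and a transposable element lie inside the intron of CG43175.

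Edg91, the pupal cuticle gene and the most abundant of the 4, was several-fold higher in the mutant. Its read counts were 393, 296 and 274 in mutants 1 to 3, against 70, 92 and 47 in controls 1 to 3. Scaled for library size with TMM, these are 20.0, 18.5 and 13.5 CPM in the mutants, against 3.24, 4.06 and 2.64 CPM in the controls. Mutant 3 was the lowest mutant, and it was still 3.34 times the highest control. The means were 17.4 ± 3.39 CPM for the mutants, against 3.31 ± 0.712 CPM for the controls (mean ± SD, n = 3 per group), which edgeR fitted as a log2 fold change of 2.36 (SE 0.17). The coefficient of variation of Edg91 among mutants, 19.5%, compares with 5.58% from counting error alone at this depth.

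CG43175, the gene that stands apart, had a log2 fold change of 3.17 (SE 0.22). Its read counts were 143, 72 and 137 in mutants 1 to 3, against 15, 15 and 13 in controls 1 to 3. The scaled values were 7.28, 4.51 and 6.77 CPM in the mutants, against 0.694, 0.661 and 0.730 CPM in the controls. Mutant 2 was the low sample here, whereas the 3 controls lay close together. The lowest mutant was 6.18 times the highest control. The means were 6.19 ± 1.47 CPM for the mutants, against 0.695 ± 0.0341 CPM for the controls (mean ± SD, n = 3 per group).

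CG14327 had the lowest level of the 4 in both groups. Only 29, 18 and 16 reads were counted in mutants 1 to 3, against 4, 2 and 2 in controls 1 to 3. The means were 1.13 ± 0.343 CPM for the mutants, against 0.128 ± 0.0505 CPM for the controls (mean ± SD, n = 3 per group), and the groups did not overlap. The 3 controls together held 8 reads, and 2 of the 3 were within the 3 counts that a count of 0 allows. The ratio of summed counts, scaled for library size, was 8.76 with an exact 95% interval of 4.18 to 21.2, which covers counting error only. The interval takes no account of the choice of CG14327 for its rise in these same samples, so it is no test of that rise. The fitted log2 fold change was 3.07 (SE 0.48), and it was 2.42 with a larger prior count of 2. CG14327 and CG43175 were close in log2 fold change, and their order turned without control 1 (3.43 for CG14327 and 3.17 for CG43175) and without mutant 3 (3.29 for CG14327 and 3.10 for CG43175).

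CG34281, which is divergent from Edg91, had the smallest log2 fold change. It had 47, 31 and 52 reads in mutants 1 to 3, against 10, 20 and 13 reads in controls 1 to 3. The means were 2.30 ± 0.324 CPM for the mutants, against 0.691 ± 0.212 CPM for the controls (mean ± SD, n = 3 per group), with the lowest mutant 2.20 times the highest control. The log2 fold change was 1.74 (SE 0.27). Control 2 was the highest control for both CG34281 and Edg91, but the lowest for CG14327 and CG43175.

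**Figure D1:**
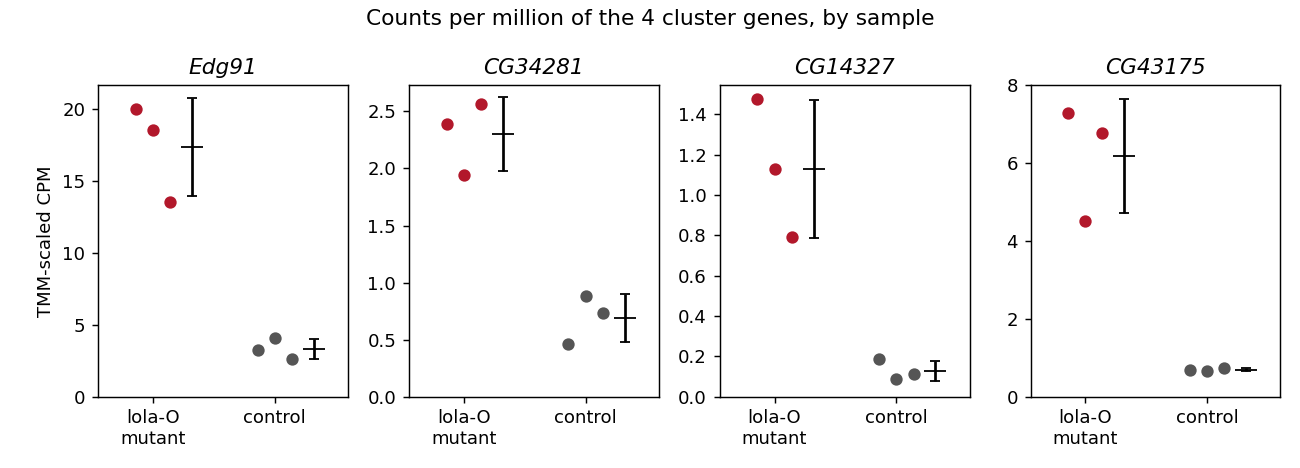
Each panel plots the TMM-scaled CPM of 1 gene (y axis, linear from 0, with its own range) in the 3 lola-O mutant and 3 control samples, 1 point per sample in the order 1 to 3, with the mean and SD at the right of each group. The mutant and control points do not overlap in any panel, and the order of the mutants differs between genes.

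In all 4 genes every mutant was above every control. The choice of genes fixes this, and 24.1% of all tested genes had groups that did not overlap with the mutant higher. Ordered by log2 fold change among the 10312 tested genes, CG43175 was number 12, CG14327 number 13, Edg91 number 21 and CG34281 number 33. Over all tested genes the median log2 fold change was 0.0010, and 0.892% were called higher by edgeR with at least a 2-fold change. In RNA from whole embryos, more cells that express a gene and more RNA per cell cannot be told apart.

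Per exon length, Edg91 led the cluster in both groups. On the TPM scale (counts per exonic base, brought to the same sum of 1000000 in each library), Edg91 averaged 50.05 ± 10.5 TPM in the mutants and 9.95 ± 1.97 TPM in the controls. CG43175 averaged 15.7 ± 3.87 TPM in the mutants and 1.85 ± 0.1254 TPM in the controls. CG34281 and CG14327 were the lowest of the 4 in the mutants. CG34281 averaged 8.93 ± 1.25 TPM for the mutants, against 2.81 ± 0.846 TPM for the controls (mean ± SD, n = 3 per group). CG14327 was last, at 2.24 ± 0.715 TPM for the mutants, against 0.265 ± 0.104 TPM for the controls (mean ± SD, n = 3 per group). CG43175 stood above CG34281 in every mutant and below it in every control. In control 1 the 2 genes were close, at 1.84 TPM for CG43175 and 1.87 TPM for CG34281. Among 10110 tested genes with an annotated length, the mean level of Edg91 exceeded 79.0% of genes in the mutants and 32.2% in the controls. The same shares were 47.6% in the mutants and 8.88% in the controls for CG43175. They were 31.0% in the mutants and 12.7% in the controls for CG34281, and 11.3% and 0.336% for CG14327.

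Edg91 held most of the cluster's reads in every sample. Together the 4 genes held 612, 417 and 479 reads in mutants 1 to 3, against 99, 129 and 75 reads in controls 1 to 3, or 27.0 ± 3.81 CPM for the mutants, against 4.83 ± 0.770 CPM for the controls (mean ± SD, n = 3 per group). Edg91 made up 57.2% to 71.0% of this sum in mutant samples, against 62.7% to 71.3% in control samples. CG43175 took 23.4%, 17.3% and 28.6% in mutants 1 to 3, against 15.2%, 11.6% and 17.3% in controls 1 to 3. CG34281 took 7.68%, 7.43% and 10.9% in the mutants, against 10.1%, 15.5% and 17.3% in the controls. The groups overlapped in each of these shares, for CG43175 between mutant 2 and control 3 and for CG34281 between mutant 3 and control 1.

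**Figure D2:**
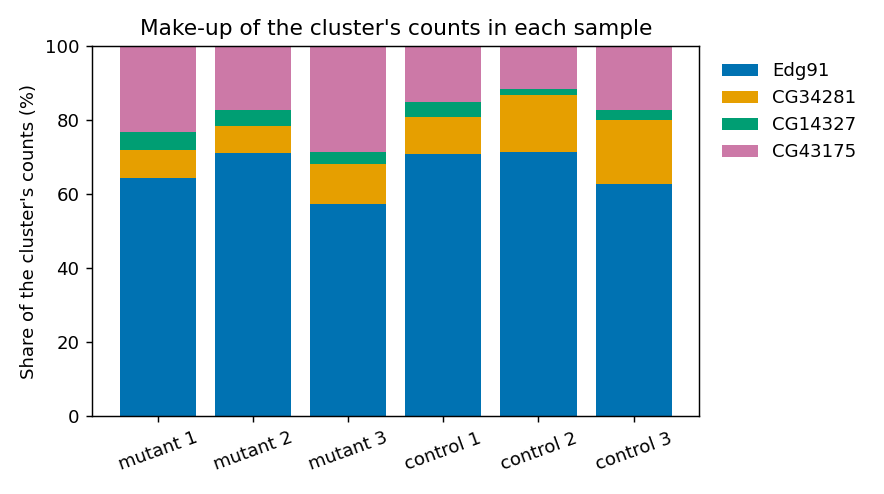
Stacked bars give the percentage of the summed read counts of the 4 genes (y axis, 0 to 100) that each gene held in each of the 3 lola-O mutant and 3 control samples. Edg91 is the largest part everywhere, from 57.2% to 71.3%, and the CG43175 part ranges from 17.3% to 28.6% in the mutants against 11.6% to 17.3% in the controls.

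The samples of a group did not deviate in the same order for the 4 genes. Relative to the mutant mean on the log2 CPM scale, mutant 3 was at -0.34 for Edg91 and -0.43 for CG14327, but at 0.16 for both CG34281 and CG43175. Mutant 2 was at -0.42 for CG43175 and -0.22 for CG34281, against 0.11 for Edg91. Mutant 1 was above the mutant mean for each of the 4 genes. With 3 samples a group, these deviations are a description only.

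Few reads were assigned to the genes that lie among the 4. Between Edg91 and the end of CG43175 the count files list 17 other genes, of which 11 are tRNA genes, 5 are protein-coding and 1 is noncoding. None of these 17 reached the expression filter, and together they held 21 reads in the 3 mutants and 42 reads in the 3 controls. The 11 tRNA genes held no reads, which does not show that they are silent: tRNAs are hardly captured in polyA RNA, many have near-identical copies, and the handling of multi-mapping reads is not given. CG14326 held most of them, with 6, 7 and 2 reads in mutants 1 to 3, against 10, 15 and 7 reads in controls 1 to 3, so its control mean of 0.506 CPM was above that of CG14327. The attacin gene AttD, which encodes an antibacterial peptide, had 0 reads in all 3 mutants and 1, 1 and 2 reads in controls 1 to 3.

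The tested genes that flank the cluster were not among those that rose. The choice of the cluster genes, as neighbours that rise together, largely fixed this. CG14329, which ends 322 bases from Edg91, had 25, 10 and 20 reads in mutants 1 to 3, against 32, 24 and 18 reads in controls 1 to 3, with -0.28 on the log2 scale (SE 0.30, adjusted p = 0.499 by edgeR). Beyond it sll, a gene for a sulfate donor transporter of the Golgi, had -0.019 on the log2 scale (SE 0.068, adjusted p = 0.860 by edgeR). On the other side the tested gene with the nearest start is CG14322, 19.6 kb from the midpoint of the cluster. The nearest by annotated span is lncRNA:CR45223, whose start is at 25.4 kb. The gene lncRNA:CR45223 fell with a log2 fold change of -0.49 (SE 0.16, adjusted p = 0.00982 by edgeR). Its means were 3.31 ± 0.304 CPM for the mutants, against 4.74 ± 0.946 CPM for the controls (mean ± SD, n = 3 per group). It no longer passed without control 3 (edgeR adjusted p = 0.107) or after each sample was corrected for its trend along transcript length (-0.38 on the log2 scale, adjusted p = 0.0640).

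Within 100 kb of the midpoint of the cluster, 21 other genes were tested, and 4 were called higher and 4 lower by edgeR. Over all tested genes 39.7% were called, 20.2% higher and 19.5% lower. The median log2 change of those 21 genes was -0.12, with a range from -1.10 to 0.37. Each lay below the smallest value in the cluster. That gap is largely fixed in advance, because the cluster genes were chosen as neighbours that rise together. The higher genes were Prx3, which encodes a mitochondrial peroxiredoxin, at 0.23, alt at 0.15, FBgn0010926 at 0.15 and CG31360 at 0.37. Beside lncRNA:CR45223, the lower genes were CG14322 at -0.15, osa, which encodes a subunit of the Brahma chromatin remodelling complex, at -0.12, and lncRNA:CR46035 at -1.10. CG14322 and lncRNA:CR45223 overlap on opposite strands by their annotated spans, osa and lncRNA:CR46035 likewise, and alt, CG31360 and FBgn0010926 also overlap an opposite-strand neighbour by their annotated spans, so their counts are uncertain because the strand setting of the counting is not given.

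Several of these 8 calls rested on single libraries or on 1 setting. Without mutant 3 the number called was 5. CG31360 no longer passed edgeR without any of mutants 1, 2 or 3 or control 3 (adjusted p of 0.0939, 0.0703, 0.0803 and 0.236), and lncRNA:CR46035 without mutant 2 or 3 or control 1 or 2 (0.0756, 0.0864, 0.0550 and 0.110). CG14322 did not pass without mutant 1 or control 2 (0.101 and 0.0912), and osa without mutant 3 (0.0573). By DESeq2, CG31360 and lncRNA:CR46035 did not pass (adjusted p of 0.121 and 0.101), and lncRNA:CR46035 did not pass in edgeR without the expression filter (0.0514). After correction for transcript length, CG14322 was at -0.045 and CG31360 at 0.27 on the log2 scale (adjusted p of 0.529 and 0.167), and osa turned to 0.071 (0.0603).

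**Figure D3:**
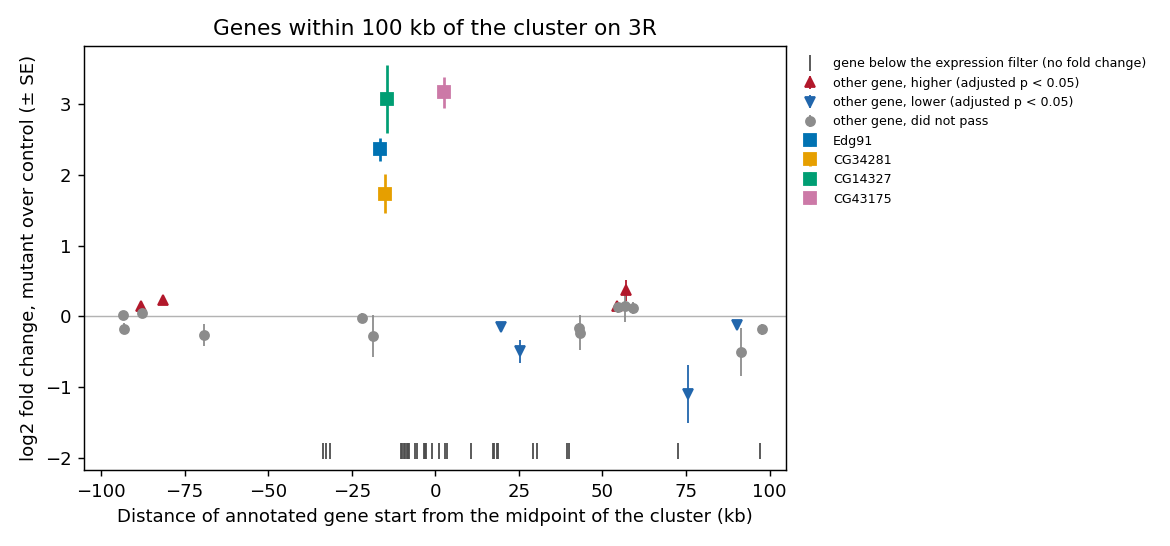
The log2 fold change of mutant over control (y axis, bars are SE) is plotted against the distance in kb of each annotated gene start from the midpoint of the cluster (x axis), with squares for the 4 cluster genes, triangles and circles for the 21 other tested genes, and ticks at the bottom for genes below the expression filter. The squares lie between 1.74 and 3.17, and the other tested genes lie between -1.10 and 0.37. The cluster genes were chosen because they rise together, which largely fixes this gap.

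The other ecdysone-dependent cuticle genes were set beside Edg91. Edg78E had 30, 35 and 33 reads in mutants 1 to 3, against 25, 27 and 32 reads in controls 1 to 3, with a log2 fold change of 0.37 (SE 0.25), which missed the threshold (edgeR adjusted p = 0.248). Edg84A was below the expression filter, with 4, 8 and 5 reads in mutants 1 to 3, against 3, 2 and 4 reads in controls 1 to 3. Per exon length Edg78E averaged 3.20 TPM in the mutants and 2.61 TPM in the controls, below Edg91 in both groups.

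Cuticle protein genes as a list moved both ways. Of 125 genes with the symbols of the Cpr, Twdl, Lcp, Ccp84 and related families, 64 were tested; 11 rose and 11 fell by edgeR, 34.4% against 39.7% of all tested genes, and the median of the 64 was -0.055 on the log2 scale. The even split moved to 7 higher and 16 lower, with a median of -0.14, after correction for transcript length. TwdlM, a Tweedle cuticle gene, was the only member in the range of the cluster, at 3.06 on the log2 scale (SE 0.36, adjusted p = 7.27e-11 by edgeR). It had 37, 29 and 49 reads in mutants 1 to 3, against 8, 3 and 4 reads in controls 1 to 3. Cpr49Ad, a chitin-binding cuticle gene, rose by 0.87, while its relatives Cpr67B and Cpr65Ay fell by 0.70 and 0.57 on the log2 scale. Members of these families resemble each other in sequence, which leaves single values uncertain.

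Genes of the ecdysone response were called about as often as other genes. Of 22 tested, 3 rose and 5 fell by edgeR, 36.4% against 39.7% of all tested genes; the log2 fold changes ran from -0.92 to 0.83 with a median of -0.092. EcR, which encodes the ecdysone receptor, had 52.1 ± 2.47 CPM for the mutants, against 65.0 ± 2.11 CPM for the controls (mean ± SD, n = 3 per group), which edgeR fitted as -0.32 on the log2 scale (adjusted p = 1.62e-08). Corrected for transcript length, EcR was at -0.16 on the log2 scale (edgeR adjusted p = 0.00208). The clock and ecdysone-inducible gene vri had -0.71, the nuclear receptor gene Eip75B had -0.11, and the nuclear receptor gene Hnf4 rose by 0.19. The riser with the greatest log2 fold change, the ecdysone-inducible gene ImpE2, had 20, 22 and 24 reads in mutants 1 to 3, against 12, 12 and 17 reads in controls 1 to 3, and its log2 fold change was 0.83 (SE 0.33), at an adjusted p of 0.0349 by edgeR. ImpE2 did not pass without mutant 2, mutant 3, control 1 or control 2 (edgeR adjusted p of 0.116, 0.0854, 0.131 and 0.144), by DESeq2 (0.117) or after correction for transcript length (0.0575). Eip75B did not pass without mutant 3 or control 3 (edgeR adjusted p = 0.0575 and 0.118), and it was at 0.043 after correction for transcript length (adjusted p = 0.325). The number of genes called in this list was 3 with that correction, 5 by DESeq2, and 4 or 5 without mutant 3, control 1 or control 2. The nuclear receptor gene ftz-f1, a regulator of Edg84A in prepupae, had a log2 fold change of -0.072 that did not pass (edgeR adjusted p = 0.275) and was 0.041 after correction for transcript length. ImpE2 and ftz-f1 are named outside the rule, after their values were seen.

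Of 6 tested genes of ecdysone synthesis and turnover, only Npc1a, a sterol transport gene, passed edgeR (16.7% against 39.7% of all tested genes), with a log2 fold change of -0.11 (adjusted p = 0.0284). It no longer passed without mutant 1, mutant 3 or control 2 (edgeR adjusted p = 0.121, 0.0651 and 0.138), by DESeq2 (adjusted p = 0.0900) or after correction for transcript length (0.750).

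Genes of cuticle tanning and chitin moved in both directions as well. Of 15 tested tanning genes 3 rose and 3 fell by edgeR, 40.0% against 39.7% of all tested genes, and the median was 0.061 on the log2 scale. The gene ple, which encodes tyrosine hydroxylase, the first step of dopamine synthesis, rose by 0.60 on the log2 scale (SE 0.052, adjusted p = 1.12e-15 by edgeR), amd, a relative of dopa decarboxylase, by 1.07 and yellow-d by 0.30, while yellow-h had -0.41. Of 26 tested chitin genes 2 rose and 8 fell, 38.5% against the same 39.7%, with a median of -0.031. The calls in this list thus leaned lower, whereas over all tested genes 20.2% were called higher and 19.5% lower. After correction for transcript length 4 chitin genes rose and 8 fell. ChLD3, which encodes a protein with a chitin-binding domain, rose by 1.53, whereas the chitinase gene Cht4 had -3.02, the chitin-binding gene obst-E -0.38 and Idgf6, a chitinase-like growth factor gene, -0.24.

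Apical matrix genes and regulators of the epidermis were called at about the rate of all tested genes, but every call was lower. No gene of either list was called higher by edgeR. Over all tested genes 39.7% were called, 20.2% higher and 19.5% lower. Of 8 tested ZP domain genes, which encode proteins of the apical extracellular matrix, 3 fell (37.5%), with log2 fold changes of -0.21 for pio, -0.26 for zye and -0.24 for qsm. Of 11 tested epidermal transcription factor genes 4 fell (36.4%), with -0.33 for grh, which controls barrier and cuticle genes, -0.30 for rib, -0.25 for ovo and -0.50 for Blimp-1. Blimp-1 did not pass without mutant 2 or control 1 (edgeR adjusted p = 0.0523 and 0.0519). After correction for transcript length zye, ovo and Blimp-1 did not pass (adjusted p = 0.0680, 0.0785 and 0.0560), and the transcription factor list then had 1 gene higher and 2 lower.

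Markers of several tissues had a lower CPM in the mutants. Of the 12 markers of neurons, larval muscle, epidermis and trachea, and haemocytes, 9 had a lower CPM in every mutant than in any control, and none had a higher one in every mutant; over all tested genes 23.7% had groups that did not overlap with the mutant lower. This held for 2 of the 3 markers of epidermis and trachea, the tissues that secrete cuticle. The chitin synthase gene kkv had 84.9 to 86.8 CPM in the mutants, against 100.4 to 101.5 CPM in the controls, and the chitin-binding gene Gasp had 116 to 119 CPM in the mutants, against 134 to 145 CPM in the controls. The third marker, knk, had 10.9 to 13.6 CPM in the mutants, against 11.3 to 12.4 CPM in the controls. The CPM values of all 12 markers are not corrected for transcript length, and corrected values are given here only for the markers of epidermis and trachea. With that correction the log2 fold change went from -0.23 to -0.13 for kkv and from -0.24 to -0.28 for Gasp. For knk it went from 0.026 to 0.028. The summed CPM of the 3 markers was 214 to 218 in the mutants, against 248 to 257 in the controls. It also held for all 3 neuron markers, with sums of 754 to 800 CPM in the mutants, against 850.2 to 868 CPM in the controls. Among the larval muscle markers it held for Mhc and Act57B but not Tm2, and among the haemocyte markers for Hml and NimC1 but not srp. The summed haemocyte markers were at 151 to 153 CPM in the mutants, against 175 to 184 CPM in the controls. Their part in the higher counts of the 4 genes was not tested.

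**Figure D4:**
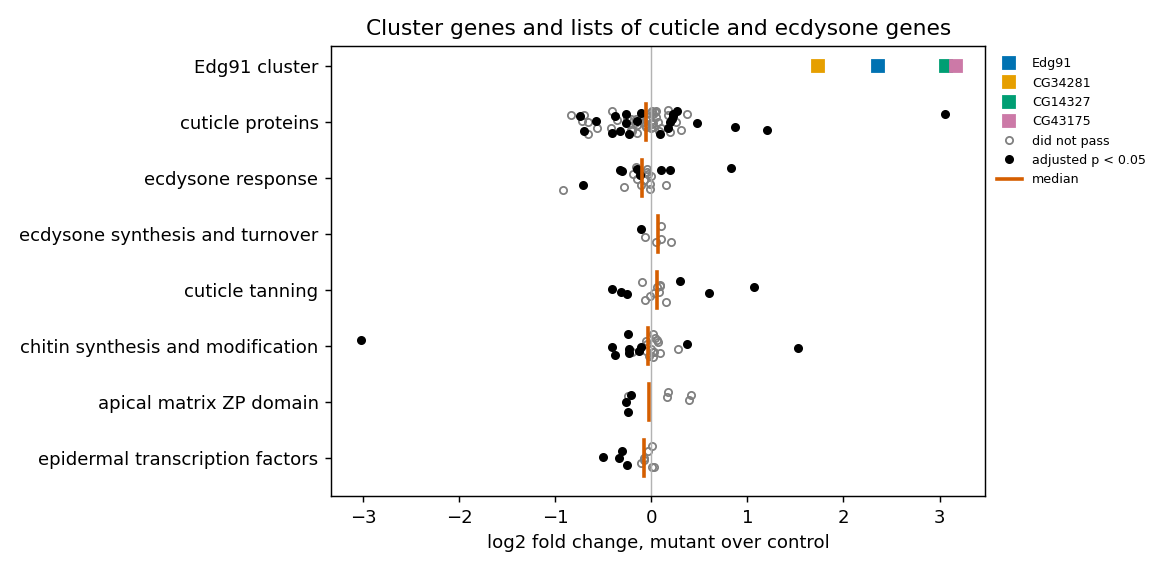
The log2 fold change of mutant over control (x axis) is shown for the 4 cluster genes (squares, top) and for each tested gene of 7 lists (circles, filled where the edgeR adjusted p is below 0.05), with a line at each list's median. The list medians lie between -0.092 and 0.071, and TwdlM in the cuticle list is the circle that reaches the range of the squares.

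The 4 transcripts are short, and short transcripts were on the whole slightly higher in the mutant. The longest transcripts of the 4 genes run from 448 to 883 bases, and 1326 other tested genes with transcripts of 883 bases or less had a median of 0.10 on the log2 scale; edgeR called 381 of them higher and 133 lower, or 28.73% and 10.03%, against 20.2% and 19.5% of all tested genes. When each sample was corrected for its trend along transcript length, that median was 0.0025. The cluster genes then had log2 fold changes of 2.26 for Edg91, 1.63 for CG34281, 2.99 for CG14327 and 3.06 for CG43175.

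The genes with the most similar profile were found by the distance of their centred log2 CPM over the 6 samples to the mean profile of the 4 genes. The difference between the groups dominates this measure. The nearest 5 were BomS1, a Bomanin immune peptide gene, at a distance of 0.551, the cytochrome P450 gene Cyp6a14 at 0.584, the Osiris gene Osi2 at 0.635, CG1077 at 0.670 and Listericin, an antibacterial peptide gene, at 0.738. The cluster genes themselves were at 0.466 for Edg91, 0.641 for CG14327, 0.875 for CG43175 and 1.07 for CG34281. Ordered by distance among all tested genes, Edg91 was number 1, CG14327 number 5, CG43175 number 11 and CG34281 number 25. The mean profile includes these 4 genes, which draws their own distances down. None of the nearest 5 lies near the cluster: BomS1, Cyp6a14 and Listericin are on 2R, and CG1077 (6167483 to 6170309) and Osi2 (6209373 to 6213493) are on 3R, with 39.1 kb between them.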

How the data were processed

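PolyA RNA was sequenced from 6 pools of embryos, 3 per group, grouped by sample title. The authors deposited raw integer counts, 1 value per FlyBase identifier, without normalization. STAR 2.5.2b, Subread 1.5.1, SAMtools 1.3.1, bedtools 2.25.0 and build BDGP6 were used, per the submitters' processing notes; for their roles, the strand setting and the handling of multi-mapping reads, the entry is: not given in the sources used here. The labels' descriptions call each control replicate 1 and the protocol names mutant embryos throughout, so titles and genotypes set the groups. No label says that replicates came from separate collections or crosses; p-values therefore reflect the spread among these 6 libraries, possibly a technical one. Replicates differed by more than sampling noise (chi-square per degree of freedom 1.94 to 6.14).

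Symbols, positions and lengths came from Ensembl release 115 (BDGP6.54), which matched 17253 of 17559 identifiers. The test was edgeR 4.0.16 under R 4.3.3 (TMM, filterByExpr by group, robust glmQLFit and glmQLFTest, Benjamini-Hochberg over 10312 genes, calls at adjusted p below 0.05), 2-sided. The SE is the log2 fold change over the square root of F. Only the main edgeR fit was tested on simulated counts, with the same spread for every gene, so genes that vary more are not covered by it. Alternatives used DESeq2 1.42.0, limma 3.58.1, other scalings, filters and windows, a replicate block, each sample left out, the 20 most abundant genes left out, prior counts of 2 and 0.5, and a loess correction of each sample along log2 transcript length.

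The members, gene lists and tests were chosen with earlier results of these data known. Genes named by rule are the 4 members, the called genes within 100 kb and the nearest tested neighbours, the 5 nearest profiles, Edg78E and Edg84A, and up to 4 called genes with the smallest adjusted p per list. The cell type markers were a separate list. Values are also given outside the rule for sll, CG14326, AttD, the Osiris genes other than Osi2, ImpE2 and ftz-f1. A planned list of short glycine-rich proteins was not run, since it needs protein sequences, which were not used here.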

Additional observations from a re-analysis of the deposited data

How the results depend on the processing

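The 4 cluster genes kept a positive log2 fold change under every setting that could fit them, from 2.24 to 2.54 for Edg91, 1.505 to 1.98 for CG34281, 2.42 to 3.43 for CG14327 and 3.00 to 3.33 for CG43175. The choice of these genes for their rise in the same samples largely fixes this direction, so the ranges describe only how far the values move. A filter of 5 CPM in 3 samples left Edg91 alone of the 4. CG14327 moved most, to 2.42 with a prior count of 2, and its 3 controls hold 8 reads in all. With each sample left out, the ranges were 2.24 to 2.54 for Edg91, 1.505 to 1.98 for CG34281, 2.81 to 3.43 for CG14327 and 3.04 to 3.33 for CG43175. Over all tested genes the calls with a sample left out were 1826 to 1976 higher and 1653 to 1896 lower, and by DESeq2 1625 higher and 1559 lower. Within 100 kb of the cluster 5 to 8 genes were called with a sample left out, and 2 within 50 kb. The ecdysone response list had 4 to 9 genes called with a sample left out, 5 by DESeq2 and 3 with the transcript-length correction. Ecdysone synthesis and turnover had 0 to 1 with a sample left out; it had 0 by DESeq2 (1 at an unadjusted p under 0.05) and 0 in edgeR with the transcript-length correction (0 at an unadjusted p under 0.05). That correction turned Eip75B to 0.043, osa to 0.071 and ftz-f1 to 0.041, and the cause was not tested. Of 590 values for 40 named genes outside the cluster, 551 kept direction and side of the threshold, 36 lost the call and 3 turned. A replicate block gave 2083 genes higher and 1994 lower and 5 called tanning genes in place of 6. The shared numbers did not pair the samples: deviations of same-numbered samples correlated at 0.058, -0.033 and 0.067, and 3 of 6 samples correlated best with their own number. The planned glycine-rich list was not run. At this depth CG14327 in controls is limited by counting error.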

Other observations

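Osi2 belongs to the Osiris genes, a family of secreted or membrane-associated insect proteins that lie mostly side by side on 3R. Other Osiris genes were looked at because Osi2 was among the nearest profiles, a choice made after its values were seen, so they get no test as a list. Of 22 genes in the count files whose symbol is Osi followed only by digits, 6 passed the expression filter. A gene with any other form of symbol was not counted. Osi2 had 53, 23 and 38 reads in mutants 1 to 3, against 5, 11 and 6 reads in controls 1 to 3, a log2 fold change of 2.501. The other 5 tested genes with such symbols had log2 fold changes of -0.34 for Osi7, -0.18 for Osi24, 0.013 for Osi14, 0.080 for Osi17 and 0.56 for Osi19, and none of these passed edgeR. Osi3, which was below the filter, had 4, 2 and 0 reads in mutants 1 to 3 and 0 reads in all 3 controls.

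CG1077, the other 3R gene with a similar profile, had 83, 70 and 62 reads in mutants 1 to 3, against 9, 12 and 9 reads in controls 1 to 3, a log2 fold change of 2.98.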
